A study of Mus musculus with 4 samples.

Results

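The response of Mcu knockdown liver to partial hepatectomy was read as the difference between 2 of the 4 microarrays of the study, the knockdown array at 30 h minus the knockdown array at 0 h. It was computed for 19505 genes, all those with 1 symbol, each through the probe set with the highest mean over the 4 arrays, so no gene was chosen by its response. The mice were male and of strain C57BL6J. Knockdown animals carried floxed Mcu alleles and received, through a tail vein at 10 to 12 weeks of age, an adeno-associated virus of serotype 8 with Cre recombinase under the TBG promoter. This promoter is active in hepatocytes, so Mcu in the other cells of the liver was not the target. Control littermates received the same virus without a transgene, and their genotype is labelled as wild type. The genotype label of the knockdown arrays names another gene than Mcu, against their source name, the treatment protocol and the series title, so the knockdown is described here as the latter give it. At 5 weeks after injection 70% of the liver was removed, and the remnant was frozen 30 h later. The 0 h arrays are labelled as the control time. The series text gives pools of 4 animals per genotype, and each group was 1 array.

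Without replicates the values below carry no error and no test was run, and a difference between times is a difference between pooled arrays. The labels name no animals operated on without resection, so removal of liver, the operation and the time of sampling cannot be told apart. Descriptions given with the samples mention feeding with ethanol, and 1 of them, for the later knockdown array, puts sampling at 1 h after surgery, while titles and time labels give 30 h and name no ethanol. Mcu itself, the pore subunit of the uniporter that lets calcium into mitochondria, read 2.83 at 0 h and 2.63 at 30 h in the knockdown, against 4.77 and 4.30 in control liver, on the log2 scale. Both knockdown arrays were thus below both control arrays. The hepatocyte markers Alb and Apob read 12.69 and 11.61 on the knockdown 0 h array and 12.63 and 11.76 at 30 h.

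The liver replaces lost mass without a stem cell compartment: quiescent hepatocytes leave G0, copy their DNA and divide, while they go on making plasma proteins and clearing metabolites. Cytokines released after surgery also drive the acute phase response, in which hepatocytes secrete serum amyloid, lipocalin, orosomucoid and other defence proteins. Calcium that enters mitochondria through the uniporter activates dehydrogenases of the matrix and shapes calcium signals in the cytosol, and calcium signals are among those that accompany the start of regeneration.

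In the knockdown liver, most acute phase genes and most genes of DNA replication were higher at 30 h, as were Mt1 and Mt2, and all male-biased genes and most bile acid and drug metabolism genes were lower. Genes are called bright here when their mean over the 4 arrays reached 3.83, the median of all gene means. Past 2-fold lay 258 (2.64%) of the 9759 bright genes on the higher side at 30 h and 267 (2.74%) on the lower side. The same counts in control liver were 584 (5.98%) and 157 (1.61%). The knockdown response was thus split almost evenly, with 49.1% of the genes past 2-fold on the higher side, and the median of all bright genes was -0.04 against 0.10 in control. Over all 19505 genes the knockdown counts were 531 (2.72%) higher and 392 (2.01%) lower, the median response was 0.01 and its SD across genes 0.51. The dim genes alone gave 273 (2.8%) higher and 125 (1.28%) lower. Past 4-fold there were 36 bright genes higher and 22 lower. All arrays hold RNA of whole liver, so fewer cells of a type and less RNA per cell cannot be told apart in any lower value.

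**Figure D1:**
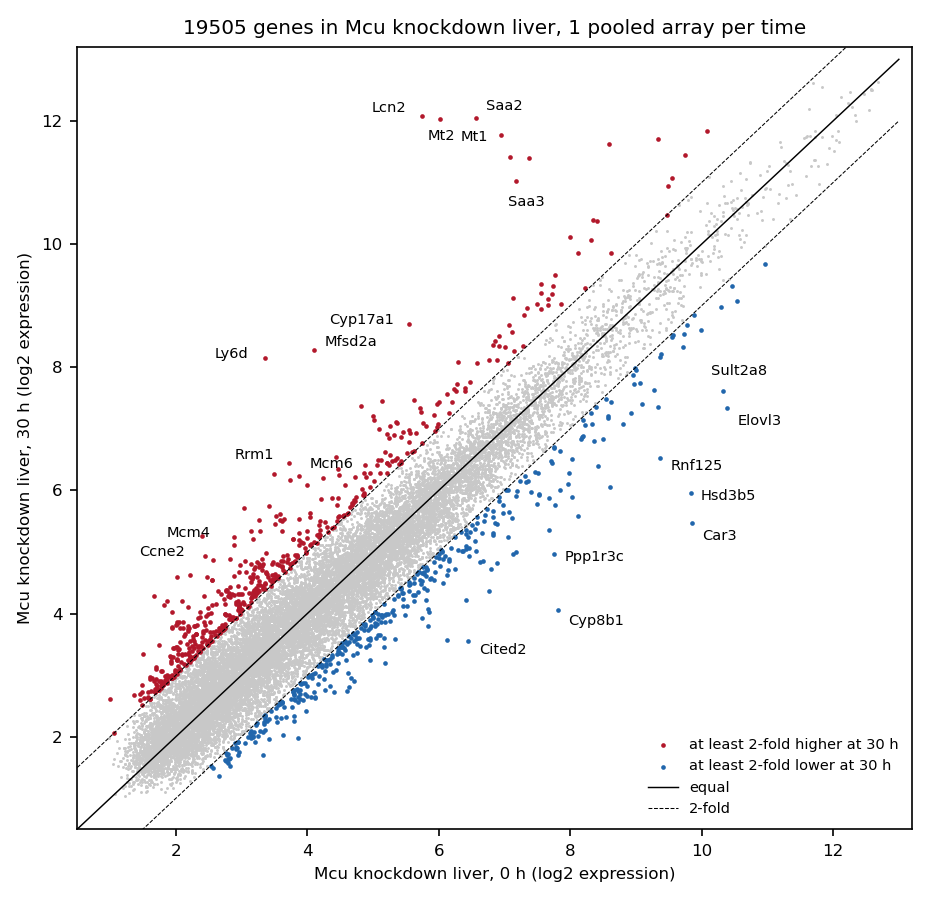
Log2 expression of 19505 genes in Mcu knockdown liver at 0 h (horizontal axis) and at 30 h after partial hepatectomy (vertical axis), 1 pooled array per time. Red points (531) and blue points (392) mark genes past 2-fold on the higher and the lower side at 30 h, the solid line marks equal values and the dashed lines 2-fold. Lcn2, Mt2, Saa2 and Mt1 lie farthest above the line and Car3 and Hsd3b5 farthest below.

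Among the genes just past the threshold, Atn1, Fanca and Fn1 were higher by 1.00 on the log2 scale, and Anapc15, Dmrtc1a and Dpp7, higher by 0.99, were just outside it. On the other side Abca2, Colec11 and Cyp2c70 differed by -1.0, and Colec12, Elp2 and Erbb3 by -0.99. Nothing in the arrays separates these neighbours.

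The acute phase proteins led the response. Of the 26 measured members of a list of positive acute phase genes, 24 were higher at 30 h, 14 of them by 2-fold or more, and none was lower by that much, with a median of 1.49 against 0.01 over all genes. In control liver 17 were at least 2-fold higher, against 818 (4.19%) of all genes, with a median of 1.355. Lcn2, which encodes lipocalin 2, a protein that binds bacterial siderophores, read 5.74 at 0 h and 12.08 at 30 h in the knockdown and 6.76 and 12.09 in control. Its difference of 6.34, or 81.0-fold, was the highest of all 19505 genes, and it exceeded the control difference of 5.33 through the lower knockdown value at 0 h, since the values at 30 h nearly coincided. Saa2, a serum amyloid carried on high density lipoprotein, read 6.56 and 12.04 in the knockdown and 7.02 and 11.76 in control, differences of 5.48 and 4.74. Saa1, its close homologue, read 7.38 and 11.40 against 7.42 and 11.44, a difference of 4.02 in both genotypes. Saa1 and Saa2 are near-identical in sequence, so their probe sets may share signal.

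Another serum amyloid gene and the receptor gene Cd14 separated the genotypes at 30 h. Saa3, which is also made by macrophages, read 7.18 and 11.02 in the knockdown and 7.17 and 9.25 in control. The 0 h arrays were level and the knockdown 30 h array stood above the control 30 h array, with differences of 3.84 and 2.08. Cd14, the co-receptor for bacterial lipopolysaccharide, read 3.49 and 6.26 against 3.37 and 4.91, and differed by 2.77 and 1.54. Serpina3n, a serine protease inhibitor, read 9.33 and 11.71 against 9.30 and 10.81, and differed by 2.38 and 1.51. In each of these 3 genes the arrays at 0 h were close and the knockdown array at 30 h was the highest of the 4.

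The orosomucoids, plasma carriers of drugs and lipids, were also high at 30 h. Orm2 read 7.08 and 11.41 in the knockdown and 7.77 and 11.31 in control, and differed by 4.33 and 3.54. Orm1 differed by 1.75 in the knockdown and 1.56 in control, and Orm3 by 1.72 and 2.75, but the 3 orosomucoid genes are close copies and are not cleanly separated by probes. Apcs, serum amyloid P, differed by 2.05 and 1.87, the fibrinogen-like Fgl1 by 1.71 and 1.45, the metalloreductase Steap4 by 1.62 and 1.39, and the hyaluronan-binding Itih4 and Itih3 by 1.52 and 1.46 in the knockdown. The fibrinogen chains Fga, Fgb and Fgg, which are near the top of the scale at 0 h, differed by 0.56, 0.46 and 0.26. Hamp, which encodes the iron hormone hepcidin, differed by 0.19, and Saa4 by -0.07. The list as a whole thus held strongly and weakly responding members in both genotypes.

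The promoter windows of 4 of these genes are shown because they share the letters of a C/EBP site, a binding motif of the factors C/EBPbeta and C/EBPdelta. The sequences come from RefSeq on the GRCm38.p6 assembly, run 5′ to 3′ on the gene's strand from 250 bases before the annotated start to 30 bases after it, and carry the match to TTGCNNAA in capitals.
Lcn2, chr2:32387710-32387989, minus strand: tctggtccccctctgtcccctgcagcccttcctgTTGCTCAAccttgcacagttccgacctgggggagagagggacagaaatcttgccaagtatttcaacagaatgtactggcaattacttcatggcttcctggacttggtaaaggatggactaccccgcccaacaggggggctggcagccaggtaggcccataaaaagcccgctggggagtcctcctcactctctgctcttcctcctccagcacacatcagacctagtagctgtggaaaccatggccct
Saa2, chr7:46751583-46751862, plus strand: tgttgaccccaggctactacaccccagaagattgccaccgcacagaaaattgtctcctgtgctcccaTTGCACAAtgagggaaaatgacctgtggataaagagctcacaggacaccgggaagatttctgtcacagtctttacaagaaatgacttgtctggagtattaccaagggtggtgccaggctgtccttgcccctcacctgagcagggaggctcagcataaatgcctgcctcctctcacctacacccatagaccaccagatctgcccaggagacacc
Saa1, chr7:46742951-46743230, minus strand: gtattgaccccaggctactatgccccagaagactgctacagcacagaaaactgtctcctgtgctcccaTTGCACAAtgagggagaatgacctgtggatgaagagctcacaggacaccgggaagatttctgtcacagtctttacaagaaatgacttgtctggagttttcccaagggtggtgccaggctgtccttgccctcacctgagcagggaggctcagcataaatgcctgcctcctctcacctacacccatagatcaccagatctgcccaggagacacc
Orm2, chr4:63362199-63362478, plus strand: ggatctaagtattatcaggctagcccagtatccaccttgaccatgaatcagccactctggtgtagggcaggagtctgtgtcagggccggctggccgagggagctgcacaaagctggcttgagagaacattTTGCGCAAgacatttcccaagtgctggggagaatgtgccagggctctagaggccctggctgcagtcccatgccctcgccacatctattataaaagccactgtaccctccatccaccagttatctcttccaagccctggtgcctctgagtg
Each window held 1 match, on Lcn2 at -216, on Saa2 at -183, on Saa1 at -182 and on Orm2 at -120 from the start. Saa1 and Saa2 carry the same match at nearly the same place. In windows of 300 bases, from 250 before to 50 after the start and read on both strands, the motif was found in 12 of 24 windows (50%) of the 21 acute phase genes with one, and in 3547 of 32851 windows (10.8%) of all genes. The STAT motif TTCNNNGAA was found in 7 of the 24 (29.2%) and in 8.3% of all windows, and the NF-kappaB motif in 0 of the 24 and 0.411% of all. The C/EBP motif was also in windows of weakly responding members, with 2 matches in Saa4 and 1 each in Fga and Fgb. It was absent from those of Apcs, Serpina3n, Itih3 and Itih4, which were at least 2-fold higher in the knockdown. A match in letters is a description of the sequence and not a site of binding.

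Metallothioneins were the other leading group. These small cysteine-rich proteins bind zinc and copper, and their genes answer to metals, glucocorticoids and cytokines. Mt2 read 6.02 at 0 h and 12.03 at 30 h in the knockdown, and 8.15 and 11.67 in control. The knockdown 0 h array was the lowest of the 4 and the knockdown 30 h array the highest, and the difference of 6.01, or 64.4-fold, compared with 3.52 in control. Mt1 read 6.94 and 11.77 against 7.63 and 11.36, with the same order of arrays and differences of 4.83 and 3.73. The probes of Mt1 and Mt2 may share signal, since the genes are close copies. Of the 12 genes of the metallothionein and zinc transport list, 8 were higher in the knockdown and the median was 0.175, so the large differences were those of Mt1 and Mt2. Slc30a1, the zinc exporter that metals induce with metallothionein, read 5.84 and 6.08, and Mtf1, the zinc-sensing transcription factor, read 5.87 and 6.21. Slc30a10, a manganese exporter, read 5.95 and 4.67, a difference of -1.28, against -0.88 in control.

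The windows of Mt2 and Mt1 are shown because they are dense in the metal response element, the motif that Mtf1 binds. The capitals mark matches to TGCACNC or TGCGCNC on either strand.
Mt2, chr8:94172368-94172647, plus strand: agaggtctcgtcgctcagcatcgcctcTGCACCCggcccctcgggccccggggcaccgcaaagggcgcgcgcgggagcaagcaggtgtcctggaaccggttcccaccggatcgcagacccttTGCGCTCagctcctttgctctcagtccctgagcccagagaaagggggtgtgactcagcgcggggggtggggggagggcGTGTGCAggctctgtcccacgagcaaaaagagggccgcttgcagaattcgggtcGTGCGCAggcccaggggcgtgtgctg
Mt1, chr8:94178839-94179118, plus strand: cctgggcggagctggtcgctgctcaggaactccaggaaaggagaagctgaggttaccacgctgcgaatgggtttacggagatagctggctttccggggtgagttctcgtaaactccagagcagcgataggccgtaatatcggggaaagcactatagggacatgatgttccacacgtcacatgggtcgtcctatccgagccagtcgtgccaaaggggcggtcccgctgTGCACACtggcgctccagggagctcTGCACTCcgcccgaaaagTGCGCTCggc
Mt2 held 4 matches, at -223, -128, -50 and 5 from the annotated start, and Mt1 held 3, at -23, 3 and 21. At least 3 matches were found in 647 of 32851 windows of all genes (1.97%), and at least 1 in 25.7%, so a single match is common. Of 13 windows of the 10 genes of this list with one, 3 (23.1%) held at least 3. These were the windows of Mt1, Mt2 and Slc30a10, and Slc30a10 was lower at 30 h, by -1.28.

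**Figure D2:**
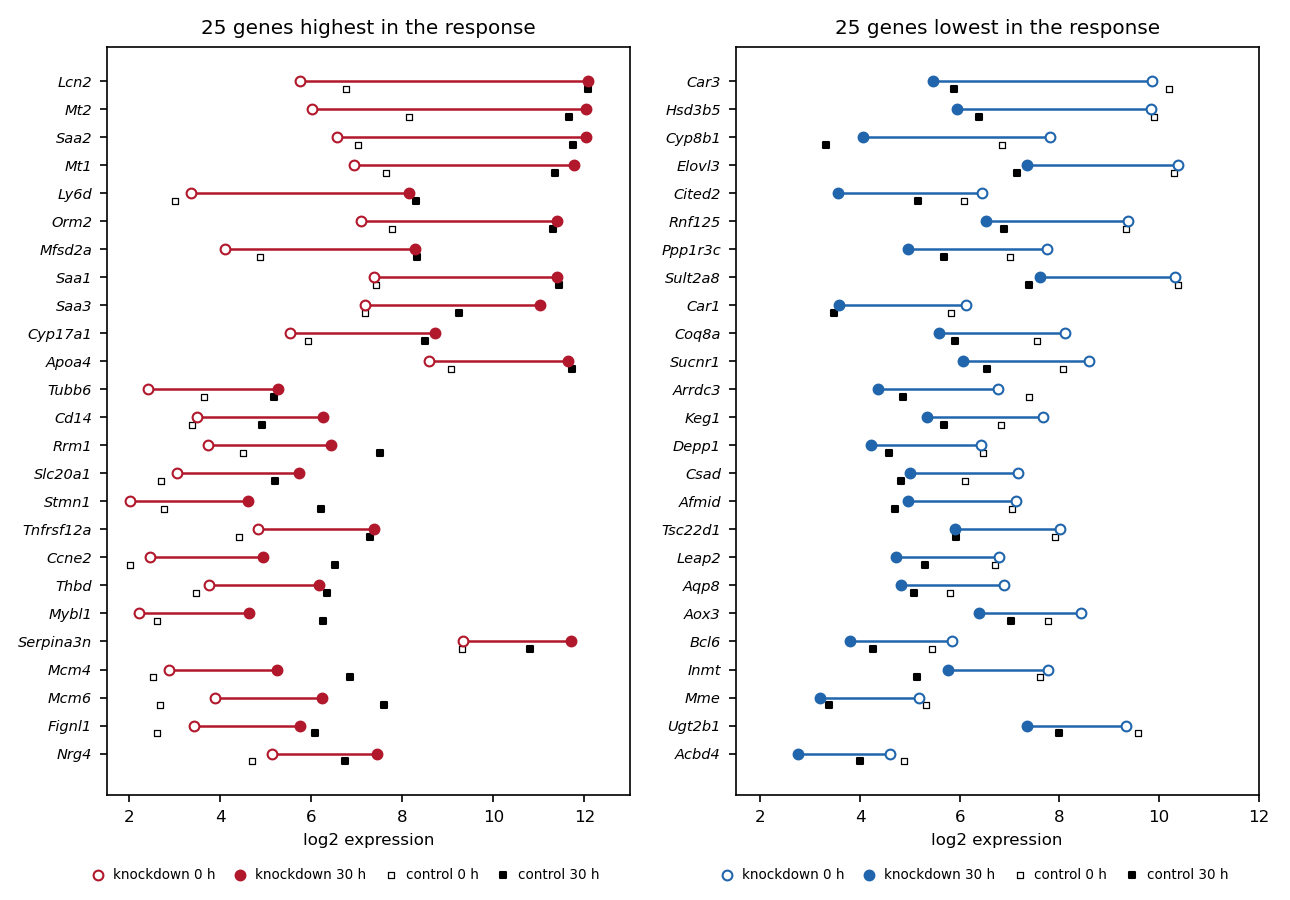
Log2 expression of the 25 bright genes with the highest (left, red) and the 25 with the lowest response (right, blue) in knockdown liver, open circles at 0 h and filled circles at 30 h. Small squares give the control arrays, open at 0 h and filled at 30 h; all 25 genes on the left and 21 of the 25 on the right were also at least 2-fold apart in the same direction in control liver.

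Of the 25 bright genes with the largest positive response, 7 belonged to the acute phase list, 4 to the cell cycle lists and 7 to none of the lists. All 25 were also at least 2-fold higher in control liver, and 14 were further from 0 in the knockdown than in control. Ly6d, a surface protein anchored by glycosylphosphatidylinositol, read 3.35 and 8.15 in the knockdown and 3.0 and 8.30 in control, a difference of 4.80 against 5.30. Mfsd2a, a transporter of lysophospholipids, read 4.10 and 8.28 against 4.87 and 8.33, and differed by 4.18 and 3.46. Apoa4, an apolipoprotein of triglyceride-rich particles, read 8.59 and 11.63 against 9.08 and 11.72, and differed by 3.04 and 2.64. For Mfsd2a and Apoa4 the values at 30 h were level between genotypes and the knockdown began lower. Apoa4 was the only gene past 2-fold in the list of plasma carriers, of which 13 of 19 were lower with a median of -0.25, against 0.0 in control, and Apoh and Apoa2 differed by -0.61 and -0.44. Cyp17a1, a steroid hydroxylase that is female-biased in mouse liver, read 5.54 and 8.71 against 5.93 and 8.50. Slc20a1, a phosphate transporter, differed by 2.68 in the knockdown and 2.51 in control, the TWEAK receptor gene Tnfrsf12a by 2.55 and 2.88, thrombomodulin (Thbd) by 2.43 and 2.88, and the growth factor gene Nrg4 by 2.32 and 2.05. Tubb6, a beta tubulin, read 2.40 and 5.26 against 3.63 and 5.17, and Stmn1, which destabilises microtubules, read 2.02 and 4.60 against 2.76 and 6.21.

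Cell cycle genes were higher in the knockdown at 30 h, by less than in control liver. The 4 lists of replication and division genes held 119 measured genes, of which 99 were higher and 33 at least 2-fold higher in the knockdown, with a median of 0.53. In control 109 were higher and 74 at least 2-fold higher, with a median of 1.27, and 99 of the 119 had a smaller response in the knockdown. Of the 74 genes past 2-fold in control, 68 were higher in the knockdown and 30 were past 2-fold there, and the median of the ratio of the knockdown log2 difference to that of control was 0.408. The gap lay mainly at 30 h: the median knockdown minus control difference over the 119 genes was 0.02 at 0 h and -0.75 at 30 h, where 109 genes were lower in the knockdown. Over all bright genes these medians were 0.06 and -0.11. Birc5, Ncaph and Rfc3 were past 2-fold only in the knockdown, by 1.06, 1.18 and 1.02, against 0.91, 0.90 and 0.88 in control.

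**Figure D3:**
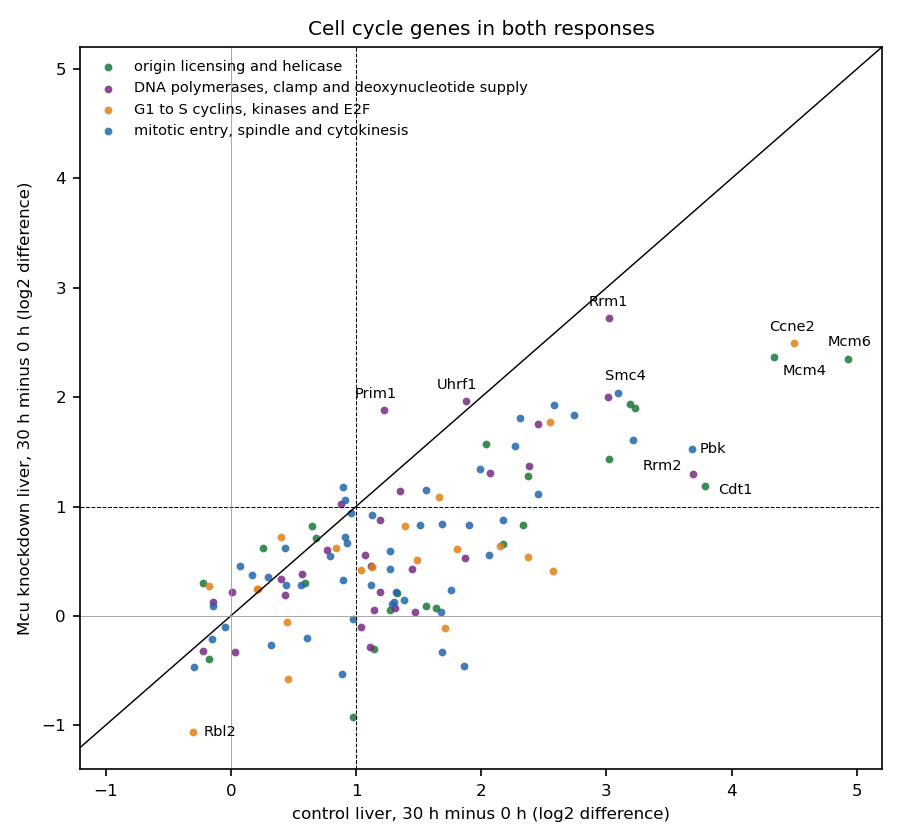
Log2 difference between 30 h and 0 h of the 119 cell cycle genes in control liver (horizontal axis) and Mcu knockdown liver (vertical axis), each point 1 gene coloured by list. The solid line marks equal responses and the dashed lines 2-fold; 99 of the 119 genes lie below the solid line, Mcm6, Mcm4 and Ccne2 far below it, and Prim1 above.

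The licensing list, whose products load and activate the replicative helicase at origins, had 19 of 22 genes higher and 8 at least 2-fold higher, with a median of 0.685 against 1.60 in control. Mcm4, a subunit of the MCM2-7 helicase ring, read 2.88 at 0 h and 5.25 at 30 h in the knockdown and 2.51 and 6.85 in control, differences of 2.37 and 4.34. Mcm6 read 3.88 and 6.23 against 2.67 and 7.60, differences of 2.35 and 4.93, and Mcm5 read 3.51 and 5.45 against 3.14 and 6.33, differences of 1.94 and 3.19. In all 3 the knockdown began above control and ended below it. Mcm2 differed by 1.90 in the knockdown and 3.23 in control, and Mcm3 by 1.43 and 3.02. Cdt1, the licensing factor that brings the helicase to origins, read 4.83 and 6.02 against 2.77 and 6.56, so the genotypes were further apart at 0 h than at 30 h, and its differences were 1.19 and 3.79. Dbf4 and Cdc7, the 2 subunits of the kinase that starts the helicase, differed by -0.92 and -0.30 in the knockdown and by 0.98 and 1.14 in control. The origin recognition gene Orc6 differed by 0.07 against 1.64.

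The windows of Mcm6 and Mcm5 are shown because both hold pairs of E2F motifs, which bind the factors that open the S phase programme. The capitals mark matches to TTTCCCGC, TTTCGCGC or TTTGGCGC on either strand, and where 2 matches on opposite strands overlap they form 1 run.
Mcm6, chr1:128359676-128359955, minus strand: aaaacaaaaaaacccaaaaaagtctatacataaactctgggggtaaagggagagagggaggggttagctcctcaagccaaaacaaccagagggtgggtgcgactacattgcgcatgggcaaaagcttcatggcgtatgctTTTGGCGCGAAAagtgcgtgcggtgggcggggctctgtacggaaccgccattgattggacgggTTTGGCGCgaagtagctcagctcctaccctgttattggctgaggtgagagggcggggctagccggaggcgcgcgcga
Mcm5, chr8:75109259-75109538, plus strand: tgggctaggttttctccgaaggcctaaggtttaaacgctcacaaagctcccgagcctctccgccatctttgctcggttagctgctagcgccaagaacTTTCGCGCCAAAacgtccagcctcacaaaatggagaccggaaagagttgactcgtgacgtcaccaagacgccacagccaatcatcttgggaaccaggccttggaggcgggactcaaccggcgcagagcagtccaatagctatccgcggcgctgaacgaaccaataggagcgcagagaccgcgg
Mcm6 held 3 matches, at -110, -106 and -47, and Mcm5 held 2, at -153 and -149. At least 2 matches were found in 25 of all 32851 windows (0.0761%) and at least 1 in 606 (1.84%). In the cell cycle lists 27 of 117 windows (23.1%) held at least 1, and 6 (5.13%) at least 2.

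Polymerases, the sliding clamp and the supply of deoxynucleotides showed 25 of 29 genes higher and 10 at least 2-fold higher, with a median of 0.46 against 1.19 in control. Rrm1, the large subunit of ribonucleotide reductase, read 3.72 and 6.44 in the knockdown and 4.49 and 7.51 in control, so that its differences of 2.72 and 3.02 were close although both knockdown arrays were lower. Rrm2, the small subunit of the same enzyme, read 4.20 and 5.50 against 3.40 and 7.09, and differed by 1.30 and 3.69. The 2 subunits thus kept different shares of the control response. Pcna, the sliding clamp, read 7.13 and 9.13 against 6.83 and 9.84. Prim1, a primase subunit, read 3.65 and 5.53 against 5.14 and 6.36, and its difference of 1.88 was above the 1.22 of control because the knockdown began low. Uhrf1, which carries DNA methylation through replication, read 4.24 and 6.20 against 4.34 and 6.22, nearly the same on both pairs of arrays. Rfc2 and Rpa2, a clamp loader subunit and a single-strand binding protein, differed by 0.04 and -0.28 in the knockdown and by 1.47 and 1.11 in control.

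Among the G1 to S regulators, 16 of 20 genes were higher and 3 at least 2-fold higher, with a median of 0.48 against 1.26. Ccne2, a cyclin that activates CDK2 at the start of S phase, read 2.45 and 4.94 in the knockdown and 2.01 and 6.51 in control, and differed by 2.49 and 4.50. Ccne1 differed by 1.77 and 2.55, and Ccna2, the S phase and G2 cyclin, by 1.09 and 1.66. Cdc25a, the phosphatase that frees CDK2, read 2.97 and 2.86 against 2.40 and 4.11, a difference of -0.11 against 1.71. Rbl2, the pocket protein p130 of quiescent cells, read 6.41 and 5.35 against 6.17 and 5.87, and its -1.06 was the only 2-fold lower value of the list. Mybl1, a transcription factor of the Myb family outside the lists, read 2.21 and 4.62 against 2.61 and 6.26.

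Of the mitotic genes, 39 of 48 were higher and 12 at least 2-fold higher, with a median of 0.505 against 1.27. Smc4, a condensin subunit, read 3.58 and 5.62 in the knockdown and 3.68 and 6.77 in control, differences of 2.04 and 3.09. Ube2c, which hands ubiquitin to the anaphase-promoting complex, differed by 1.93 and 2.58, and Cdk1, the mitotic kinase, read 1.94 and 3.78 against 2.75 and 5.49. The proliferation marker Mki67 read 3.20 and 4.75 against 3.91 and 6.18. Cdk1 and Mki67 were lower on both knockdown arrays than on the matching control arrays. Kif20b differed by 1.61 and 3.21. Prc1, Bub1 and Kif4, genes of the spindle midzone, the spindle checkpoint and chromosome condensation, differed by -0.46, -0.33 and -0.53 in the knockdown and by 1.86, 1.69 and 0.89 in control. The median level of the 48 genes was 3.02 at 0 h and 3.675 at 30 h in the knockdown, below the median of all genes. Differences among such dim values may be understated in both genotypes, which was not tested. Among the 20 bright members the knockdown median was 0.585.

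Genes that growth signals induce early were higher in the knockdown more often than not: 23 of 26 immediate early genes were higher and 6 at least 2-fold higher, with a median of 0.455, against 2 at least 2-fold higher and a median of 0.275 in control. Myc, a transcription factor of growth, read 3.88 and 5.54 in the knockdown and 4.43 and 4.56 in control, differences of 1.66 and 0.13. Ier3 read 3.19 and 4.72 against 4.31 and 4.30, differences of 1.53 and -0.01. Both began lower and ended higher in the knockdown than in control. Egr1 differed by 1.43 and 1.89, the stress factor Atf3 by 1.37 and 0.76, Klf6 by 1.17 and 0.91, and Btg2 by 1.12 and 0.75. Dusp1, a phosphatase of MAP kinases, differed by -0.48 and 0.27. Ribosome biogenesis genes were higher for 30 of 34 members but none reached 2-fold, with a median of 0.29 against 0.49. Wdr12, Ddx18 and Rrp12 had the highest values there, 0.90, 0.87 and 0.85.

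The p53 target and CDK inhibitor list had 14 of 24 genes higher, beside 9793 of all 19505 genes, and a median of 0.135. Past 2-fold were 1 member on the higher and 2 on the lower side. Cdkn1a, which encodes the CDK inhibitor p21, read 5.89 and 6.59 in the knockdown and 4.05 and 6.67 in control, so the levels at 30 h were close and the difference of 0.70, against 2.62, followed from a high value at 0 h. Plk3 differed by 1.71 and 2.69, and Plk2 read 4.05 and 2.65 against 3.38 and 4.26, a difference of -1.40 against 0.88.

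The components of the cytokine pathway that induces many acute phase genes were mixed. In the IL-6 and STAT3 list 8 of 21 genes were higher and 13 lower, with a median of -0.27 against 0.21 in control. Socs3, the feedback inhibitor of this pathway, read 5.37 and 5.11 in the knockdown and 3.30 and 4.95 in control, so the knockdown was already high at 0 h. Stat3 read 6.46 and 6.04 against 6.43 and 6.79, and the receptor gene Il6ra read 5.81 and 4.92 against 5.40 and 5.56. Cebpd, an acute phase transcription factor, differed by 1.01 and 1.41, and Cebpb by 0.51 and 0.72. Lifr, the receptor for leukaemia inhibitory factor, differed by -1.06 and -0.88. The tumour necrosis factor receptor gene Tnfrsf1a read 6.63 and 7.39 against 6.33 and 7.13, and Igfbp1, an insulin-like growth factor binding protein of regenerating liver, read 6.83 and 8.36 against 6.83 and 7.64, with 1.53 the next highest difference of the growth factor list after Tnfrsf12a. Met, the receptor for hepatocyte growth factor, read 6.27 and 5.50 against 6.09 and 6.30.

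**Figure D4:**
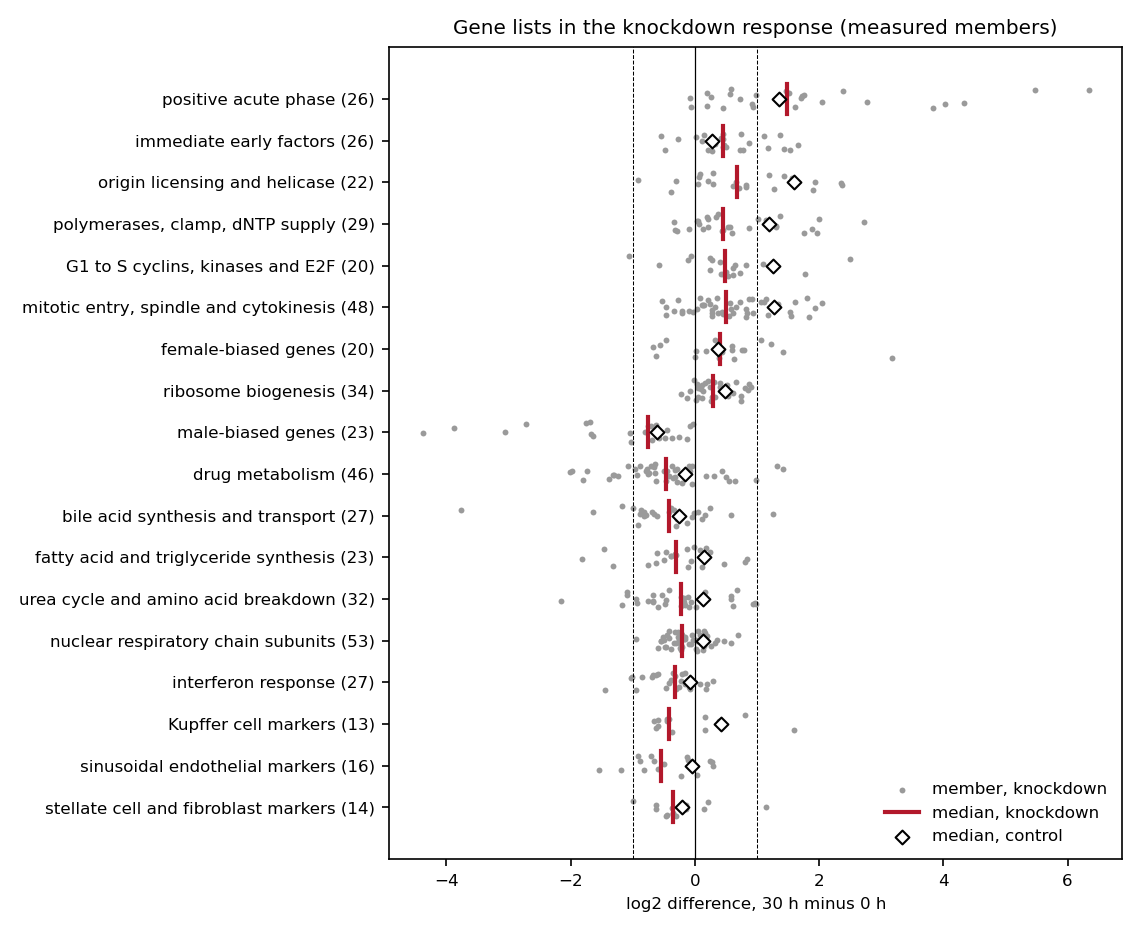
Log2 difference between 30 h and 0 h in Mcu knockdown liver for the measured members (grey points) of 18 gene lists, with the number measured in brackets. Red bars mark the knockdown median and diamonds the control median, and dashed lines mark 2-fold; the knockdown median was highest for the acute phase (1.49) and lowest for the male-biased genes (-0.76).

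On the lower side, male-biased genes stood out. These genes depend on the pulsed growth hormone of males, and all 23 measured members were lower in the knockdown at 30 h, 10 of them by 2-fold or more. Their median was -0.76 against -0.61 in control, where 7 of them and 433 (2.22%) of all genes were past 2-fold on the lower side. Car3, a carbonic anhydrase of liver and fat, read 9.85 at 0 h and 5.47 at 30 h in the knockdown and 10.20 and 5.89 in control. Its difference of -4.38 was the lowest of all genes, and that of control was -4.31. Hsd3b5, a steroid reductase, read 9.83 and 5.95 against 9.90 and 6.38, Elovl3, which elongates fatty acids, 10.39 and 7.34 against 10.29 and 7.14, and Sult2a8, a bile acid sulfotransferase, 10.33 and 7.61 against 10.39 and 7.39. At each time the genotypes were close in all of these 4 genes. Serpina12 (-1.75) and Cyp2u1 (-1.69) were lower by more than in control, where both differed by -0.67. The growth hormone receptor gene Ghr differed by -0.76, Socs2 by -0.08 and Igf1 by -0.03. Of the 20 female-biased genes 15 were higher and 4 at least 2-fold higher, with a median of 0.41 against 0.38. Cyp2b10, Sult1e1 and Cyp4a14 followed Cyp17a1 at 1.42, 1.23 and 1.07. Bcl6, a repressor that is higher in male than in female liver, read 5.84 and 3.80 against 5.45 and 4.26.

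Bile acid genes were lower for 21 of 27 members, 4 at least 2-fold, with a median of -0.41 against -0.26. Cyp8b1, the 12-alpha-hydroxylase that sets the share of cholic acid, read 7.81 and 4.05 in the knockdown and 6.84 and 3.31 in control, differences of -3.76 and -3.53. Both 0 h arrays were high and both 30 h arrays low, with the knockdown above control at each time. Slco1a1, an uptake transporter, differed by -1.64 and -1.62, and Hsd3b7, an early enzyme of the pathway, by -1.18 and -0.54. Slc51b, a subunit of the basolateral exporter, read 2.74 and 4.00 against 4.21 and 5.82. Drug metabolism genes were lower for 37 of 46 members, 9 past 2-fold, while 2 were past 2-fold on the higher side, and the median was -0.46, where control had 7 in each direction and a median of -0.15. Inmt, a methyltransferase of indoles, read 7.77 and 5.76 against 7.61 and 5.14, and the glucuronosyltransferase Ugt2b1 read 9.33 and 7.35 against 9.57 and 7.99. The carboxylesterases Ces1e and Ces3b differed by -1.80 and -1.73, Cyp2f2 by -1.38 and the glutathione transferase Gsta3 by -1.30. Gstm2 read 7.97 and 7.92 in the knockdown and 7.02 and 8.90 in control, a difference of -0.05 against 1.88. Members of the Cyp2c, Cyp3a, Ugt2b and Ces families are similar in sequence and their values are less certain.

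Nuclear receptors and transcription factors of the hepatocyte were lower for 20 of 31 members, as were 5186 of all 9759 bright genes. The list median was -0.10 against -0.08 in control, with 1 member past 2-fold on the higher side and 3 on the lower. Mlxipl, the carbohydrate-responsive factor ChREBP, read 7.05 and 5.24 in the knockdown and 6.61 and 6.01 in control, differences of -1.81 and -0.60. Cebpa, which holds hepatocytes in the differentiated state, read 8.57 and 7.18 against 8.41 and 7.36, differences of -1.39 and -1.05. Hnf4a read 7.55 and 7.69 against 7.84 and 7.91. Cited2, a transcriptional coregulator, read 6.45 and 3.55 against 6.09 and 5.16, and its difference of -2.90, against -0.93, was among the 5 lowest of the bright genes named.

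Most genes of fatty acid metabolism, the respiratory chain and the TCA cycle were lower in the knockdown at 30 h, as were 5186 of all 9759 bright genes, against 3986 of them in control. In fatty acid and triglyceride synthesis 16 of 23 were lower, 3 at least 2-fold, with a median of -0.31 against 0.14. Scd1, the stearoyl-CoA desaturase, read 10.54 and 9.08 in the knockdown and 9.85 and 8.22 in control, and Acss2, which makes acetyl-CoA from acetate, read 8.18 and 6.87 against 7.53 and 6.93. Both began higher in the knockdown. Fatty acid oxidation had 17 of 27 lower and a median of -0.21 against 0.21, with Acaa1b, a peroxisomal thiolase, at -1.20 against -0.70 and Ppara, the nuclear receptor of the pathway, at -0.65 against -0.28. The nuclear respiratory chain subunits had 35 of 53 lower, none past 2-fold, with a median of -0.21 against 0.13. Sdha, the flavoprotein of complex II, read 6.97 and 6.03 against 6.90 and 6.67. Among the TCA cycle and calcium-sensitive dehydrogenase genes 18 of 29 were lower, with a median of -0.11 against 0.10. Of that list Pdk1, an inhibitory kinase of pyruvate dehydrogenase, differed by -1.34 and -1.29, Dlat by -0.77 and 0.15, Idh3b by -0.67 and -0.11, and Idh3a by 0.50 and 1.06.

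Amino acid breakdown had 23 of 32 genes lower, 4 at least 2-fold, with a median of -0.23 against 0.135. Afmid, a kynurenine pathway enzyme, read 7.13 and 4.97 in the knockdown and 7.04 and 4.70 in control, and Otc, of the urea cycle, read 9.77 and 8.68 against 10.01 and 9.0. Amdhd1 and Hal, of histidine breakdown, differed by -1.18 and -1.09 against -0.43 and -0.35. In glycogen metabolism Ppp1r3c, which targets protein phosphatase 1 to glycogen, read 7.76 and 4.96 against 7.0 and 5.69, differences of -2.80 and -1.31, and the phosphorylase gene Pygl differed by -1.17 and -0.51. Pck1, of gluconeogenesis, read 10.33 and 10.95 against 10.08 and 11.01. The gluconeogenesis and glycogen list as a whole had 12 of 23 genes higher and a median of 0.18 against 0.44. Of all 19505 genes, 9793 were higher in the knockdown, with a median of 0.01. In glycolysis 14 of 23 genes were higher with a median of 0.15 against 0.32, and Pfkfb3, which makes the activator of phosphofructokinase, read 3.53 and 5.58 against 4.07 and 5.51. Cholesterol genes were lower for 14 of 18 members, with a median of -0.185 against -0.37, while Sqle, squalene epoxidase, read 6.47 and 7.12 against 6.17 and 6.16.

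Retinoic acid genes held a distinct pair of values. Cyp26a1, which degrades retinoic acid, read 3.62 and 5.34 in the knockdown and 5.60 and 5.58 in control, and the receptor gene Rarb read 4.00 and 5.34 against 5.48 and 5.45. In both genes 3 of the arrays were close and the knockdown 0 h array was low, which gave differences of 1.72 and 1.34 where control gave -0.02 and -0.03. Dhrs3, a retinaldehyde reductase, read 7.52 and 5.92 against 6.66 and 6.20. Across the 20 genes of the list 14 were lower and the median was -0.295. Clock genes differed in opposite directions in both genotypes: Arntl differed by -1.71 and -2.02, Nr1d1 by -1.39 and -1.20, Ciart by 1.72 and 2.84, and Dbp by 1.45 and 2.17, whereas Clock differed by -1.07 in the knockdown and 0.37 in control. The hour of day at sampling is not given in the labels.

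Mitochondrial calcium transport genes showed small differences over the response, and Mcu itself differed by -0.20 in the knockdown and -0.47 in control. Of the 15 measured, Mcu included, 7 were higher and 7 lower, none reached 2-fold, and the median was 0.00 against 0.47 in control. Slc25a23 and Slc25a24, calcium-dependent carriers of ATP-magnesium, read 8.43 and 7.70, and 4.29 and 3.81, in the knockdown. Slc25a25, another carrier of that family, read 6.14 and 6.89 in the knockdown and 5.51 and 7.10 in control, differences of 0.75 and 1.59. Ppif, cyclophilin D of the permeability transition pore, differed by 0.41 and 1.23. Slc8b1, the sodium-calcium exchanger, differed by -0.71 and -0.66, Smdt1, whose product EMRE holds the uniporter open, by 0.03 and 0.31, and Micu2, a gatekeeper of the channel, by -0.08 and 0.51. The channel regulator genes Mcur1 (-0.05 against 0.67), Micu3 (0.21 against 0.24) and Letm1 (0.0 against -0.22) and the receptor gene Itpr2 (0.16 against -0.38) were also under 2-fold. The voltage-dependent anion channels of the outer membrane, Vdac1, Vdac2 and Vdac3, gave -0.12, 0.35 and 0.15 in the knockdown.

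The knockdown and control responses share no array, though all 4 arrays were normalised together. Across the 9759 bright genes they correlated with r = 0.46, and across all genes with r = 0.28, as descriptions of genes that are not independent. Of the 258 bright genes at least 2-fold higher in the knockdown, 153 were also at least 2-fold higher in control, which is 59.3% of the knockdown genes and 26.2% of the control genes. Of the 267 lower ones, 57 were lower past 2-fold in control too, 21.3% of the knockdown genes and 36.3% of the control genes. Over all 9759 bright genes, 5.98% were at least 2-fold higher in control and 1.61% at least 2-fold lower. Of those 267, 253 were further below 0 than in control, and 215 had the same sign there. In control 3986 of all 9759 bright genes were below 0. Among the 258 higher genes 151 were further above 0 than in control. The choice by size in the knockdown favours larger knockdown values in both counts.

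**Figure D5:**
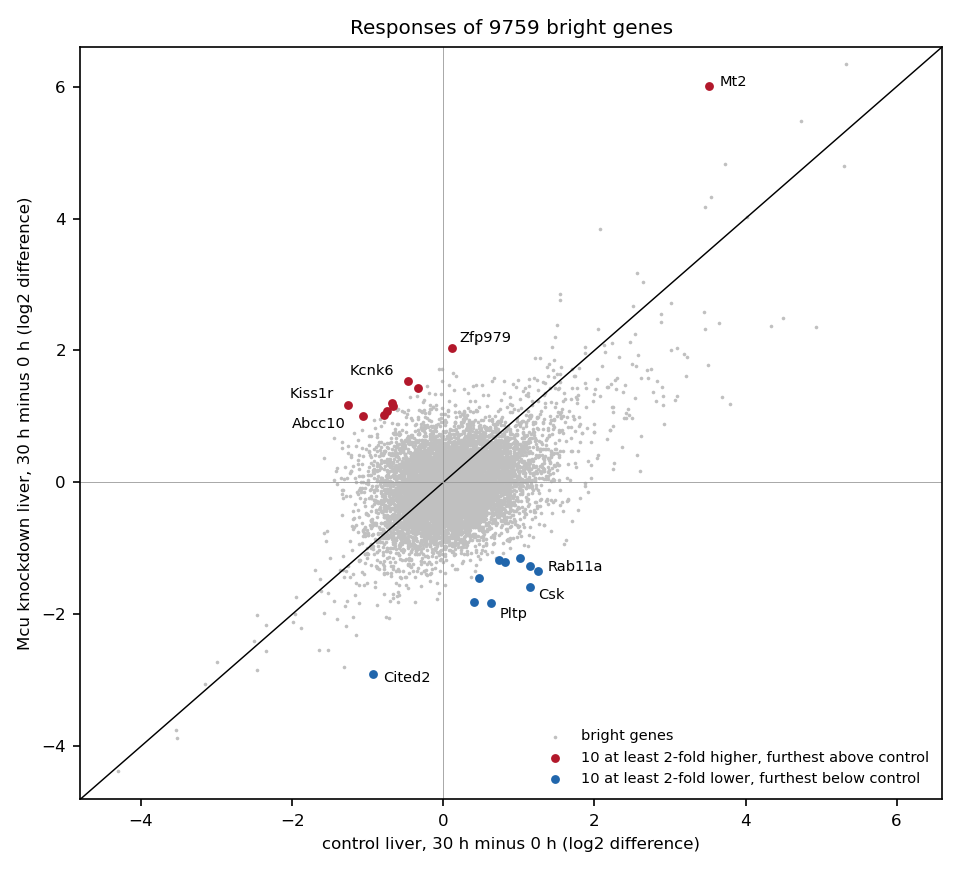
Log2 difference between 30 h and 0 h of the 9759 bright genes in control liver (horizontal axis) and Mcu knockdown liver (vertical axis), with the line of equal responses. Red points are the 10 genes at least 2-fold higher in the knockdown that exceeded control most, and blue points the 10 at least 2-fold lower that were furthest below control; Kiss1r and Abcc10 lie left of 0 and Csk and Rab11a right of 0 on the control axis.

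The genes whose knockdown response was furthest from that of control were mostly of middling level. Besides Mt2, the 10 furthest above control included Kiss1r, the kisspeptin receptor, which read 3.17 and 4.35 in the knockdown and 4.58 and 3.32 in control, differences of 1.18 and -1.26. Abcc10, an ABC transporter, read 4.14 and 5.15 against 5.04 and 3.98, and the zinc finger gene Zfp979 read 3.17 and 5.21 against 3.93 and 4.04. Kcnk6, a potassium channel, read 3.27 and 4.80 against 3.98 and 3.51. The others were Ank2 (1.43 against -0.33), Krtap9-1 (1.21 against -0.68), Rgs2 (1.16 against -0.67), Sac3d1 (1.08 against -0.74) and Dlx1 (1.02 against -0.78). In 9 of the 10 the knockdown was the lower genotype at 0 h and in all 10 the higher at 30 h, as the choice of genes favours.

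The 10 furthest below control were led by Csk, the kinase that restrains Src, which read 5.80 and 4.22 in the knockdown and 4.61 and 5.76 in control, differences of -1.58 and 1.15. Rab11a, of recycling endosomes, read 5.64 and 4.30 against 4.84 and 6.09, and Pltp, the phospholipid transfer protein, 5.85 and 4.02 against 4.47 and 5.10. Mospd2 read 6.15 and 4.88 against 4.63 and 5.78, the histamine methyltransferase gene Hnmt 5.74 and 3.93 against 5.17 and 5.58, and the splicing kinase gene Clk4 4.75 and 3.60 against 4.34 and 5.36. Ptcd3, a mitochondrial ribosome protein, read 4.94 and 3.49 against 4.90 and 5.38. Cited2, Wbp1 (-1.20 against 0.82) and Fam83h (-1.17 against 0.74) made up the 10. All 10 were above control at 0 h and below it at 30 h.

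Further bright genes with low responses covered several roles. Rnf125, a ubiquitin ligase, read 9.37 and 6.53 in the knockdown and 9.34 and 6.88 in control. Coq8a, of coenzyme Q synthesis, read 8.12 and 5.58 against 7.55 and 5.90, Sucnr1, the succinate receptor, 8.60 and 6.06 against 8.08 and 6.55, and Aqp8, a water channel, 6.88 and 4.82 against 5.81 and 5.09. These 3 genes were higher at 0 h and lower at 30 h in the knockdown than in control. Aox3, an aldehyde oxidase, differed by -2.04 and -0.76, Csad, of taurine synthesis, by -2.17 and -1.28, Leap2, the ghrelin receptor antagonist, by -2.07 and -1.41, and Keg1 by -2.32 and -1.15. Car1, Arrdc3, Depp1, Tsc22d1 and Mme differed by between -2.55 and -1.99 in the knockdown and by between -2.51 and -1.88 in control. Acbd4 read 4.61 and 2.75 against 4.88 and 4.00. Among the 25 lowest responses named, 20 genes were further below 0 in the knockdown than in control.

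Most interferon genes and most sinusoidal endothelial, Kupffer and stellate cell markers were also lower. In the interferon list 23 of 27 genes were lower, 3 at least 2-fold, with a median of -0.32 against -0.08 in control. Irf7, the interferon regulatory factor, read 6.19 and 5.24 in the knockdown and 5.09 and 5.06 in control, and Igtp, a GTPase of cell defence, read 5.03 and 4.02 against 3.96 and 3.98, so the knockdown 0 h array was the high one of the 4 in both. Sinusoidal endothelial markers were lower for 12 of 16 members, 2 at least 2-fold, with a median of -0.54 against -0.05. Clec4g, a lectin of these cells, read 6.57 and 5.02 against 6.39 and 5.80, and Dnase1l3 read 6.44 and 5.25 against 6.11 and 5.82. The log2 of the summed level of the 16 markers was 9.41 at 0 h and 8.86 at 30 h in the knockdown and 9.18 and 9.07 in control. Kupffer cell markers were lower for 8 of 13, with a median of -0.42 against 0.42, but Marco, a scavenger receptor, read 4.04 and 5.63 against 3.61 and 6.23, and the summed level was 9.51 and 9.42 against 9.09 and 9.69. Stellate cell markers were lower for 11 of 14, with a median of -0.35 against -0.21 and a summed level of 10.06 and 10.08. Colec11 was at -1.0, but Tagln, the largest difference of that list, read 3.36 and 4.50 against 3.0 and 4.89. Vsig4 and Adgre1, defining Kupffer genes, read 5.70 and 5.34, and 4.06 and 3.41, in the knockdown. Besides Marco, the Kupffer markers Cd5l, Timd4, Cd163 and Folr2 were higher in the knockdown, by 0.81, 0.39, 0.16 and 0.16. Stab2, a defining endothelial gene, read 4.26 and 3.34. The medians of these arrays were 3.79 and 3.84, so Adgre1 and Stab2 were near the median at 0 h and below it at 30 h. The endothelial markers Wnt2, Lyve1, Flt4 and Cdh5 were higher in the knockdown, by 0.30, 0.28, 0.24 and 0.03. The part of these cells in the differences of other genes was not tested.

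Markers of cells that could have entered the remnant showed no common direction. Neutrophil markers were higher for 9 of 13 with a median of 0.23, and their summed level was 6.91 and 7.01 on the log2 scale. Mmp9, the only neutrophil marker past 2-fold, read 4.12 and 3.03 in the knockdown, a difference of -1.09 against 0.36 in control. S100a8, a calcium-binding protein of neutrophils, read 2.62 and 3.37 in the knockdown and S100a9, its partner, 3.67 and 3.28. Monocyte markers had a median of 0.09 over 11 genes, with Lyz2, lysozyme, at 7.34 and 6.61, and lymphocyte markers a median of 0.10 over 13. Most of these genes were dim: 2 of the 13 neutrophil and 1 of the 13 lymphocyte markers were bright. Cholangiocyte markers had a median of 0.27 over 9 genes, and the 13 hepatocyte markers a median of 0.07. Chemokine and adhesion genes were higher for 16 of 24 members, with a median of 0.125 against 0.055. Past 2-fold were 3 on the higher and 2 on the lower side. Ccl6 read 5.00 and 7.20 against 5.35 and 6.83, and Selp, a dim gene, 2.81 and 4.34 against 3.59 and 3.53. Cxcl13 and Cxcl9 differed by -1.15 and -1.11 in the knockdown and by -0.74 and -1.32 in control. Their part in the acute phase and immediate early values was not tested.

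Few matrix, stress and protein folding genes were past 2-fold. Extracellular matrix genes were higher for 24 of 33, 3 of them past 2-fold with 1 on the lower side, with a median of 0.19 against 0.09, and Col1a2, a collagen I chain, read 3.93 and 5.14 in the knockdown and 3.64 and 5.13 in control. Creld2, a chaperone of the endoplasmic reticulum, read 5.80 and 7.05 against 6.97 and 6.71, so its difference of 1.25 followed from a low 0 h array. In the integrated stress response list 11 of 24 were higher and the median was -0.065, with the amino acid transporter Slc7a5 at 1.21 and Chac1, which degrades glutathione, at 1.04. Gclc, which makes glutathione, read 9.0 and 7.95 against 8.72 and 8.19, while Hmox1, haem oxygenase 1, read 5.78 and 6.50 against 5.50 and 6.61.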

How the data were processed

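RNA of pooled livers was hybridised to 4 Affymetrix whole-transcript arrays, 1 per genotype and time. The authors deposited 1 value per probe set on the log2 scale, with RMA run in the Affymetrix Expression Console software (per the submitters' processing notes); RMA subtracts background, equalises the arrays' distributions and summarises probes, which compresses differences of dim genes. With 1 array per group, the number of arrays limits the precision, and the genome build is not given in the sources used here.

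Of 22206 probe sets, 19572 had 1 gene symbol, 0 had several and 2634 had none in the platform annotation. They gave 19505 genes, all matched to RefSeq; 55 genes had several probe sets, of which the brightest by its mean was used. The array medians were 3.77 and 3.75 in control and 3.79 and 3.84 in the knockdown at 0 h and 30 h, and over all probe sets the knockdown arrays correlated with r = 0.96. The response was the 30 h minus the 0 h value, set against 2-fold, with no test. Arrays were grouped by the title, and the genotype label was not used. A label item is not reported here.

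The members and the 48 lists (1095 genes listed, 1009 measured) were chosen with earlier results of these data known. Genes named were the 25 bright genes with the most extreme response in each direction (without predicted genes, small RNAs, olfactory and related receptors and antigen receptor segments), up to 6 members per pathway list and 4 per marker list with the largest absolute response, the mitochondrial calcium genes, the 10 genes in each direction furthest from control, and 3 genes on each side of the threshold. Other list members named were chosen after their values were seen. Bright was defined on all 4 arrays. A marker list's summed level is the log2 of the sum of unlogged values.

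Promoter windows came from RefSeq, GRCm38.p6, by symbol, and 15691 measured genes had one; motifs were matched by letters on both strands. Alternatives changed the filter, the size, the choice of probe set and the normalisation. Calculations were tested on simulated data and used Python 3.11.15, pandas 2.3.3, numpy 2.4.6, matplotlib 3.10.9, R 4.3.3 and limma 3.58.1.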

Additional observations from a re-analysis of the deposited data

Results flagged for a closer look

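In 6 bright genes, and in Slc16a3, a dim gene of the glycolysis list, the knockdown and control responses were each at least 2-fold and opposite in direction. Dim genes outside the lists are not given here. With 1 array per group the difference between responses was not tested. The knockdown minus control difference of the responses, on the log2 scale, was 2.07 for Abcc10, 2.44 for Kiss1r, -2.73 for Csk, -2.59 for Rab11a, -2.42 for Mospd2 and -2.17 for Clk4. It was 2.76 for Slc16a3, a lactate exporter, which read 2.54 and 4.01 in the knockdown and 4.24 and 2.95 in control.

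The median response of 9 lists had opposite signs in the 2 genotypes and was at least 0.1 from 0 in both, and these differences were not tested either. The knockdown minus control difference of the medians was -0.48 for IL-6 and STAT3 signalling, -0.45 for fatty acid and triglyceride synthesis, -0.42 for fatty acid oxidation and ketogenesis, -0.365 for the urea cycle and amino acid breakdown, -0.34 for the nuclear respiratory chain subunits and -0.21 for the TCA cycle and calcium-sensitive dehydrogenases. Among marker lists it was -0.84 for Kupffer cells, 0.20 for lymphocytes and 0.43 for cholangiocytes. The medians of all bright genes, -0.04 against 0.10 in control, and of all dim genes, 0.05 against -0.11, were opposite in sign too. The smaller list differences are close to these background shifts. Only 1 of the 13 lymphocyte and 2 of the 9 cholangiocyte markers were bright.

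The 2634 probe sets without a gene symbol were left out of every comparison above. Of these, 252 (9.57%) were at least 2-fold higher at 30 h in the knockdown and 28 (1.06%) at least 2-fold lower, against 105 (3.99%) and 58 (2.2%) in control, with medians of 0.13 and -0.02. Of the 252, 46 were also at least 2-fold higher in control and 124 were bright, and some repeated the values of another probe set, since the 252 held 217 distinct sets of 4 values.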

How the results depend on the processing

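Against 258 bright genes higher and 267 lower past 2-fold, 531 and 392 passed with no filter on dim genes, 125 and 148 among genes above percentile 75, 890 and 1174 at 1.5-fold, and 71 and 48 at 3-fold. The share on the higher side was 49.1%, 57.5% with no filter and 59.7% at 3-fold. Averaging probe sets gave 257 and 266, median centring 233 and 321 (42.1% higher), quantile normalisation 270 and 288, and cyclic loess 276 and 243 (53.2% higher). Above percentile 75 the list median was 0.67 for polymerases, 0.75 for female-biased genes, -0.635 for bile acid genes and -0.46 for interferon genes, and among bright members the bile acid median was -0.61; the cause was not tested. Of the list medians recomputed under these alternatives, 258 stayed within 0.1 or, where larger, 1/3 of their value and 17 moved by more, and no median of at least 0.1 in size changed sign. The counts of list members past the threshold were less stable: in each direction 74 moved by over 1.5 times, or to or from 0, and 297 did not, and the 12 mitotic genes higher were 7 among bright members, 22 at 1.5-fold and 5 at 3-fold. No paired analysis was possible because each group was 1 array, and for the same reason no array could be left out.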

Other observations

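The genes below were chosen after their values were seen, and are given as values. Histone genes, many of which S phase cells transcribe, were grouped by symbol, and their copies share much sequence. The group includes 8 linker histone genes, some of them independent of replication, with a median of 0.37 against -0.155 in control. Of 57 histone genes 47 were higher in the knockdown at 30 h and 13 at least 2-fold higher, with a median of 0.44, against 29 at least 2-fold higher and a median of 1.01 in control. The H2A cluster genes had a median of 1.37 over 13 genes against 2.25 in control, with 9 at least 2-fold higher in each genotype and 11 of the 13 smaller in the knockdown. The H2B cluster genes had a median of 0.13 over 15 against 0.80, with 1 at least 2-fold higher against 4 in control. For the 10 H3 cluster genes the median was 0.89 against 1.73, with 2 at least 2-fold higher against 8 in control. For the 11 H4 cluster genes it was 0.26 against 1.06, with 0 at least 2-fold higher against 6 in control. H2bc18 read 3.91 and 5.16 in the knockdown and 4.16 and 7.23 in control, and H2ax, a replacement variant that marks DNA breaks when phosphorylated, read 5.35 and 7.11 against 5.66 and 7.76.

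The keratin genes Krt8 and Krt18 and the actin-binding protein genes Tpm1, Tpm4 and Tagln2 had similar differences in both genotypes. Krt8 read 8.12 and 9.85 in the knockdown and 8.09 and 9.89 in control, and Krt18, its partner in simple epithelia, read 7.77 and 9.49 against 7.97 and 9.68. Tpm1 differed by 1.36 and 1.60, Tpm4 by 1.35 and 1.12, and Tagln2 by 1.08 and 1.12. Anxa2 and Lgals1 had smaller differences in the knockdown, 1.01 against 1.59 and 1.41 against 2.01. Rcan1, an inhibitor of calcineurin that calcium signals induce, read 5.09 and 6.99 against 4.66 and 6.99, and Ppargc1a, a coactivator of mitochondrial biogenesis, read 4.86 and 6.29 against 4.88 and 6.65.

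Inflammatory genes outside the acute phase list included some with a larger knockdown value. Tnfaip3, which encodes the NF-kappaB inhibitor A20, read 3.37 and 4.99 in the knockdown and 3.45 and 3.62 in control, a difference of 1.62 against 0.17. A2m, a protease inhibitor, read 3.47 and 4.81 against 3.76 and 3.65. Lrg1 differed by 1.75 and 1.37, and Tifa by 1.80 and 1.40. On the lower side Gamt, of creatine synthesis, read 8.50 and 6.84 against 7.99 and 7.39, Klhl24 read 6.67 and 4.86 against 5.67 and 5.29, and the tight junction gene Cldn1 read 7.53 and 5.94 against 7.60 and 6.70. Slc6a8, the creatine transporter, read 5.32 and 6.90 against 5.79 and 6.46.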
